A study of Homo sapiens with 4 samples.

Results

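The 9 nucleic acid sensor genes RIGI, IFIH1, DHX58, TLR3, CGAS, STING1, ZBP1, EIF2AK2 and ADAR were examined for open chromatin. A peak was taken as theirs when it overlapped the GENCODE GRCh38 gene body or the 10 kb upstream of it, a rule of position. The 9 genes themselves were picked with earlier results of these data known. Merged over the 4 peak lists, 25 of 93211 regions met this rule. The data were ATAC-seq peak lists, in which a transposase marks open DNA, from HK1, an established human nasopharyngeal carcinoma cell line. The wild-type line (WT) and a knockout of FLI1, an ETS family transcription factor gene, made with a guide RNA (FLI1-KO), were left untreated or received the cytokine IFN-γ for 24 h. Each of the 4 groups had 1 peak list, taken throughout as 1 library. Below, the groups labelled or plotted as WT and WT-IFN-γ are called untreated and treated WT, and sgFLI1 with its treated partner sgFLI1-IFN-γ untreated and treated FLI1-KO. The 25 regions came from 19 peaks in untreated WT, 21 in treated WT, 20 in untreated FLI1-KO and 22 in treated FLI1-KO. The labels do not say which guide was used or whether the knockout cells were 1 clone.

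These genes encode the proteins by which a cell notices foreign or misplaced nucleic acids. RIGI and IFIH1 (MDA5) bind double-stranded RNA in the cytosol and signal to type I interferon genes, DHX58 (LGP2) is their relative without a signalling domain, and TLR3 reads double-stranded RNA in endosomes. CGAS binds cytosolic DNA and makes the cyclic dinucleotide that STING1 detects. ZBP1 binds Z-form nucleic acids and can start necroptosis, EIF2AK2 (PKR) stops translation on double-stranded RNA, and ADAR edits adenosines in double-stranded RNA and so keeps the other sensors from reading the cell's own transcripts. Several of them are themselves induced by interferons, through IRF factors that bind repeats of GAAA.

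As every group had a single peak list, the spread between replicates is unknown and no test was run. The values are the summit pileup of a peak, which is the number of tags stacked at its highest point, with 95% intervals for counting error only. The whole lists comprised 59629 peaks in untreated WT, 67470 in treated WT, 63203 in untreated FLI1-KO and 59923 in treated FLI1-KO, at 8.04, 8.84, 6.93 and 6.86 tags per kb of genome, so the depth of treated WT was 1.29 times that of treated FLI1-KO. Ratios are therefore given between pileups divided by these densities. A region missing from a list had no peak there past the caller's threshold, which is not the same as closed. Fewer cells with an open site and a site less open in each cell cannot be told apart in these data. The window of FLI1 itself held 4 peaks in untreated WT, 5 in treated WT, 5 in untreated FLI1-KO and 4 in treated FLI1-KO, and a peak list does not show an edited sequence. Of 7 epithelial marker genes, 5 had a promoter region in some list, and KRT14 and TP63 had none. The KRT5 region, with its summit at -2066 bp from the start of transcription, stood higher in FLI1-KO than in WT. Its ratio was 1.85 without IFN-γ (1.17 to 2.97) and 2.01 with it (1.27 to 3.24). With IFN-γ, EPCAM (0.605, 0.382 to 0.941) and KRT8 (0.790, 0.624 to 0.998) stood lower in FLI1-KO, and KRT18 was at 1.13 (0.828 to 1.55). CDH1 was not listed in treated FLI1-KO and was weak elsewhere, with 18 tags in untreated WT, 25 in treated WT and 15 in untreated FLI1-KO. Of 5 markers of blood, stromal and endothelial cells, COL1A1 had one in every list (132 to 172 tags), PTPRC had one of 12 tags in untreated WT alone, PDGFRB one of 12 tags in treated FLI1-KO alone, and CD3E and PECAM1 had none. The part of these differences, and of other cells, in the values below was not tested.

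Of the 25 regions, 6 held an IRF motif within 100 bp of the summit, spelled here as GAAA, any 2 bases and GAAA on either strand. That was 24% of them, against 4.48% of all 93211 regions and 2.49% of the regions within 3 kb of a coding transcription start site (TSS). Of these 6, 5 lay at the canonical TSS of IFIH1, DHX58, TLR3, EIF2AK2 and ADAR and the other upstream of STING1. The sites of IFIH1, TLR3, STING1, EIF2AK2 and ADAR are shown because they hold the motif, and that of DHX58 is not reported here. They include the promoter of IFIH1, whose depth-scaled pileup was over 2-fold lower in treated FLI1-KO than in treated WT. Each line gives 30 bases of GRCh38 5′ to 3′ on the strand of the gene, with the motif in capitals. It reads TTTC, 2 bases and TTTC where it lies on the opposite strand.
IFIH1, chr2:162318686-162318715, minus strand: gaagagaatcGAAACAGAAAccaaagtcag
TLR3, chr4:186069142-186069171, plus strand: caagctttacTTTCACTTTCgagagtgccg
STING1 upstream region, chr5:139492876-139492905, minus strand: aactaaagagTTTCATTTTCccactctcat
EIF2AK2, chr2:37156967-37156996, minus strand: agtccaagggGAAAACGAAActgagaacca
ADAR, chr1:154608179-154608208, minus strand: ccgaggaaacGAAAGCGAAAttgaaccgga

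Counted from the canonical TSS as 0, the motif ran from -21 to -12 in IFIH1, from -4 to 5 in TLR3, from -6 to 3 in EIF2AK2 and from -12 to -3 in ADAR. In STING1 it ran from -10137 to -10128. The ETS word CCGGAAGT was in 0 of the 25 regions and in 1.02% of all regions, and the AP1 word TGACTCA was in 3 (12%), against 18.3% of all regions. These 3 were the ZBP1 region 2.2 kb inside the gene and the EIF2AK2 regions in exon 17 and intron 11. Both words were searched on both strands, and neither overlapped an IRF motif in these regions. A match describes the letters only. The RefSeq table of promoters (GRCh38.p14, 250 bases before to 50 after a start) held 5 of the 9 genes, and 3 of these, IFIH1, TLR3 and EIF2AK2, had the motif there. Counted by promoter, the motif was in 3 of 7 entries of sensor genes (42.9%), against 3.57% of the table's 35116 promoters. The table's ADAR entry starts at the upstream start, 19.8 kb from the canonical one.

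Of the 9 promoter regions, 7 were listed in every library, with the DHX58 region missing from untreated WT and the ZBP1 region missing from untreated FLI1-KO. RIGI, CGAS, STING1 and ADAR had promoter pileups of 76 to 154 tags, IFIH1 and EIF2AK2 were between 39 and 107, with IFIH1 above STING1 in treated WT, and DHX58, TLR3 and ZBP1 were between 11 and 71 where listed. In treated WT the order by pileup was ADAR, RIGI, CGAS, IFIH1, STING1, DHX58, EIF2AK2, ZBP1 and TLR3, and neighbours in it had overlapping Poisson intervals in 7 of 8 pairs, all but EIF2AK2 and ZBP1. In treated FLI1-KO it was RIGI, STING1, CGAS, ADAR, EIF2AK2, IFIH1, DHX58, ZBP1 and TLR3, with 7 of 8 overlapping and a gap between ADAR and EIF2AK2. Peaks were not scaled per length, since a summit is a single position.

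**Figure D1:**
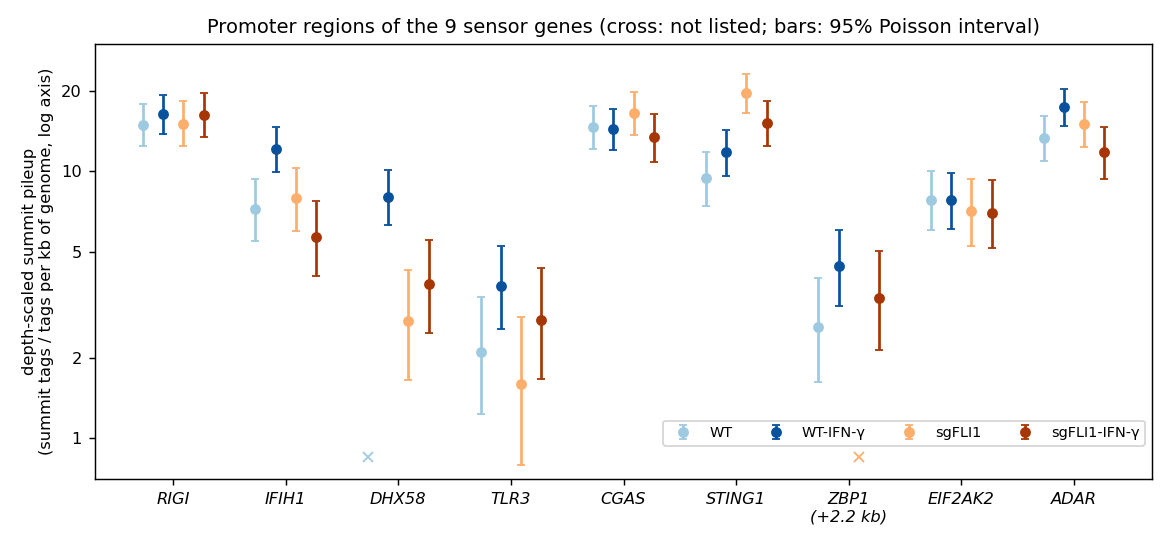
Depth-scaled summit pileup (summit tags divided by the library's tags per kb of genome, log axis) of the promoter region of each sensor gene in the 4 libraries, with 95% Poisson intervals and crosses for libraries in which the region was not listed. Treated WT (dark blue) stands above the other 3 libraries at IFIH1 and DHX58, while RIGI and EIF2AK2 lie level. The ZBP1 region lies 2.2 kb inside the gene.

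RIGI (ENSG00000107201.11, chromosome 9, 32455302 to 32526208, minus strand) had its promoter region at a summit 239 bp upstream of the canonical TSS, with 120 tags in untreated WT, 145 in treated WT, 105 in untreated FLI1-KO and 112 in treated FLI1-KO. The 4 values lay within each other's counting error once divided by depth. The IFN-γ ratio was 1.10 in WT (0.857 to 1.41) and 1.08 in FLI1-KO (0.818 to 1.42). A second region, in intron 1 and 49 bp from the start of a shorter transcript, was listed in untreated FLI1-KO alone with 18 tags.

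IFIH1 (ENSG00000115267.10, chromosome 2, 162267074 to 162318684, minus strand) had a promoter region 31 bp upstream of its TSS with 58 tags in untreated WT, 107 in treated WT, 55 in untreated FLI1-KO and 39 in treated FLI1-KO. A TSS of the neighbouring gene GCA lies within the same region, so its tags cannot be assigned to IFIH1 alone. The treated WT library was the highest and the treated FLI1-KO library the lowest. The IFN-γ ratio was 1.68 in WT (1.21 to 2.35), at percentile 96.3 of all shared regions, and 0.717 in FLI1-KO (0.463 to 1.10). FLI1-KO stood at 1.10 of WT without IFN-γ (0.747 to 1.62) and at 0.470 with it (0.317 to 0.683), where other shared regions within 5 Mb had a median of 0.986. The local background set for this peak was 5.71 tags in untreated WT, 10.8 in treated WT, 4.73 in untreated FLI1-KO and 4.18 in treated FLI1-KO. It rose and fell with the pileup over the libraries, and whether it counts the peak's own tags is not given. On the fold over that background, as deposited, the IFN-γ ratio in WT was 1.04 and that of treated FLI1-KO to treated WT was 0.843. The stretch upstream of the TSS is shown for its 3 IRF matches, a pair that overlaps and begins at -159 and -153 and the 1 at -21 given above, from RefSeq GRCh38.p14.
IFIH1, chr2:162318685-162318883, minus strand: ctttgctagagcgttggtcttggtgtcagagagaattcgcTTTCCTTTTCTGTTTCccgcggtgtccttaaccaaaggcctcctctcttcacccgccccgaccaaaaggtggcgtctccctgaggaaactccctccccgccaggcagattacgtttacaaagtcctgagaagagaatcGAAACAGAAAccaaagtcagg

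The other 4 IFIH1 regions were weak, with at most 20 tags. Those in intron 3, 20.5 and 17.3 kb inside the gene, were in every list with 10 to 17 tags. The region 8.7 kb upstream was in all lists but treated WT (15, 20 and 15 tags in untreated WT, untreated FLI1-KO and treated FLI1-KO), and 1 just beyond it, 9951 bp upstream, was in treated WT alone with 15 tags. Both lie closer to the TSS of GCA than to that of IFIH1.

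DHX58 (ENSG00000108771.13, chromosome 17, 42101404 to 42112714, minus strand) was the sensor whose promoter region was listed with IFN-γ only in WT cells. The region, 30 bp upstream of the TSS, was not listed in untreated WT and had 71 tags in treated WT, 19 in untreated FLI1-KO and 26 in treated FLI1-KO. Scaled to the depth of untreated WT, the treated WT value would be 64.6 tags, and 25 would have sufficed for a peak at its background. In FLI1-KO cells the region was listed in both libraries, with an IFN-γ ratio of 1.38 (0.736 to 2.64), and its 19 tags in untreated FLI1-KO would be 22.0 at the depth of untreated WT, where 17 would have sufficed. With IFN-γ, FLI1-KO stood at 0.472 of WT (0.289 to 0.749), against a median of 1.07 within 5 Mb, and at 0.612 on the deposited fold.

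Within DHX58, a region in intron 7, 85 bp from an internal start, followed the same pattern of listing: none in untreated WT, 35 tags in treated WT, 27 in untreated FLI1-KO and 29 in treated FLI1-KO. Its 35 tags would be 31.9 at the depth of untreated WT, where 21 would have sufficed. The region in the last exon, exon 14, had 37 tags in untreated WT, 37 in treated WT, 50 in untreated FLI1-KO and 60 in treated FLI1-KO, so both FLI1-KO libraries were above both WT libraries. FLI1-KO stood at 1.57 of WT without IFN-γ (1.00 to 2.47) and at 2.09 with it (1.36 to 3.24), or 1.28 on the deposited fold. The other 2 regions of this window, 4148 and 8630 bp upstream, lay near the promoter of KAT2A, a lysine acetyltransferase gene, and had 27 to 51 tags in every list.

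TLR3 (ENSG00000164342.14, chromosome 4, 186068911 to 186088073, plus strand) had 1 region, at its promoter 22 bp past the TSS, in exon 1. It held 17 tags in untreated WT, 33 in treated WT, 11 in untreated FLI1-KO and 19 in treated FLI1-KO. The treated library was the higher of the pair in both genotypes, at 1.77 in WT (0.956 to 3.38) and 1.75 in FLI1-KO (0.789 to 4.06), and both intervals included 1. FLI1-KO stood at 0.751 of WT without IFN-γ (0.318 to 1.7) and at 0.742 with it (0.398 to 1.34).

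CGAS (ENSG00000164430.17, chromosome 6, 73413515 to 73452297, minus strand) had one of the widest promoter regions of the set, in exon 1, with 118 tags in untreated WT, 127 in treated WT, 115 in untreated FLI1-KO and 92 in treated FLI1-KO. The IFN-γ ratio was 0.980 in WT (0.756 to 1.27) and 0.808 in FLI1-KO (0.608 to 1.07). The region 9.5 kb upstream was the promoter of MTO1, which encodes a mitochondrial tRNA-modifying protein, with 107, 107, 83 and 67 tags in the order untreated WT, treated WT, untreated FLI1-KO and treated FLI1-KO. A weak peak of 9 tags beyond the canonical transcript was in treated FLI1-KO alone. No IRF match was found within 100 bp of these summits.

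STING1 (ENSG00000184584.14, chromosome 5, 139475533 to 139482935, minus strand) had a promoter region in intron 1, 328 bp past the TSS, with 76 tags in untreated WT, 104 in treated WT, 136 in untreated FLI1-KO and 104 in treated FLI1-KO. The untreated FLI1-KO library was the highest, at 2.08 of WT (1.56 to 2.79), while other shared regions within 5 Mb had a median of 1.29. On the deposited fold this ratio was 0.981, on the other side of 1, with a local background of 9.57 tags in untreated WT and 18.2 in untreated FLI1-KO. With IFN-γ, FLI1-KO stood at 1.29 of WT (0.972 to 1.71), near the median of 1.24 within 5 Mb, and at 0.803 on the deposited fold. The IFN-γ ratio was 1.25 in WT (0.918 to 1.7) and 0.773 in FLI1-KO (0.593 to 1.00).

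The second STING1 region, with a summit 10115 bp upstream of the canonical TSS, was not listed in untreated WT and had 45 tags in treated WT, 13 in untreated FLI1-KO and 22 in treated FLI1-KO. The summit lay within the window, 9938 bp from the nearest STING1 start, and the treated WT peak ran past the window's end. Scaled to untreated WT, the 45 tags would be 41.0, where 13 would have sufficed. In FLI1-KO cells the IFN-γ ratio was 1.71 (0.824 to 3.70), and with IFN-γ FLI1-KO stood at 0.630 of WT (0.360 to 1.07), where the median within 5 Mb was 1.24. The stretch is shown because it was the distal region of the set that was listed with IFN-γ only in WT and held the IRF motif.
STING1 upstream region, chr5:139492786-139492995, minus strand: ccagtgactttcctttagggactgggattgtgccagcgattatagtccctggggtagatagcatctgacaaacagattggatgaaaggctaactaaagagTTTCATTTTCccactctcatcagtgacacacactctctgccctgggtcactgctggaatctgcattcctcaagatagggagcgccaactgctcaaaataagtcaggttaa

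ZBP1 (ENSG00000124256.15, chromosome 20, 57603846 to 57620576, minus strand) had no peak at its canonical TSS. The nearest region lay in intron 1, 2.2 kb inside the gene and 179 bp from an internal start, with 21 tags in untreated WT, 39 in treated WT, none listed in untreated FLI1-KO and 23 in treated FLI1-KO. It was higher or newly listed with IFN-γ in both genotypes. The ratio in WT was 1.69 (0.970 to 3.02), and the 23 tags of treated FLI1-KO would be 23.2 at the depth of untreated FLI1-KO, where 14 would have sufficed. A region 2.3 kb upstream was lower with IFN-γ in WT, with 48 tags in untreated WT, 33 in treated WT, 33 in untreated FLI1-KO and 39 in treated FLI1-KO, and ratios of 0.626 (0.389 to 0.995) in WT and 1.19 (0.732 to 1.96) in FLI1-KO.

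EIF2AK2 (ENSG00000055332.19, chromosome 2, 37099210 to 37157522, minus strand) had a promoter region with an IRF motif across its TSS and nearly level pileups, 63 tags in untreated WT, 69 in treated WT, 49 in untreated FLI1-KO and 48 in treated FLI1-KO. The IFN-γ ratio was 0.997 in WT (0.698 to 1.43) and 0.990 in FLI1-KO (0.651 to 1.5). A region in exon 17 had 19 tags in untreated WT, 21 in treated WT and 15 in treated FLI1-KO and was not listed in untreated FLI1-KO, and 1 in intron 11 was in untreated WT alone with 10 tags.

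ADAR (ENSG00000160710.18, chromosome 1, 154581695 to 154628013, minus strand) had a region at each of its starts. The canonical start belongs to a transcript of 1226 residues, the long form p150 that interferons are known to induce, and its region held 107 tags in untreated WT, 154 in treated WT, 104 in untreated FLI1-KO and 81 in treated FLI1-KO. The start 19.8 kb upstream belongs mostly to transcripts of 931 residues, the constitutive form p110, and its region held 81, 70, 54 and 47 tags in the same order. The IFN-γ ratio in WT was 1.31 at the p150 start (1.02 to 1.69) and 0.787 at the upstream start (0.563 to 1.10). In FLI1-KO it was 0.787 (0.581 to 1.06) and 0.880 (0.582 to 1.32). With IFN-γ, FLI1-KO stood at 0.678 of WT (0.511 to 0.892) at the p150 start and at 0.865 (0.585 to 1.27) at the other, with a median of 1.03 within 5 Mb. The IRF motif was at the p150 start alone.

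**Figure D2:**
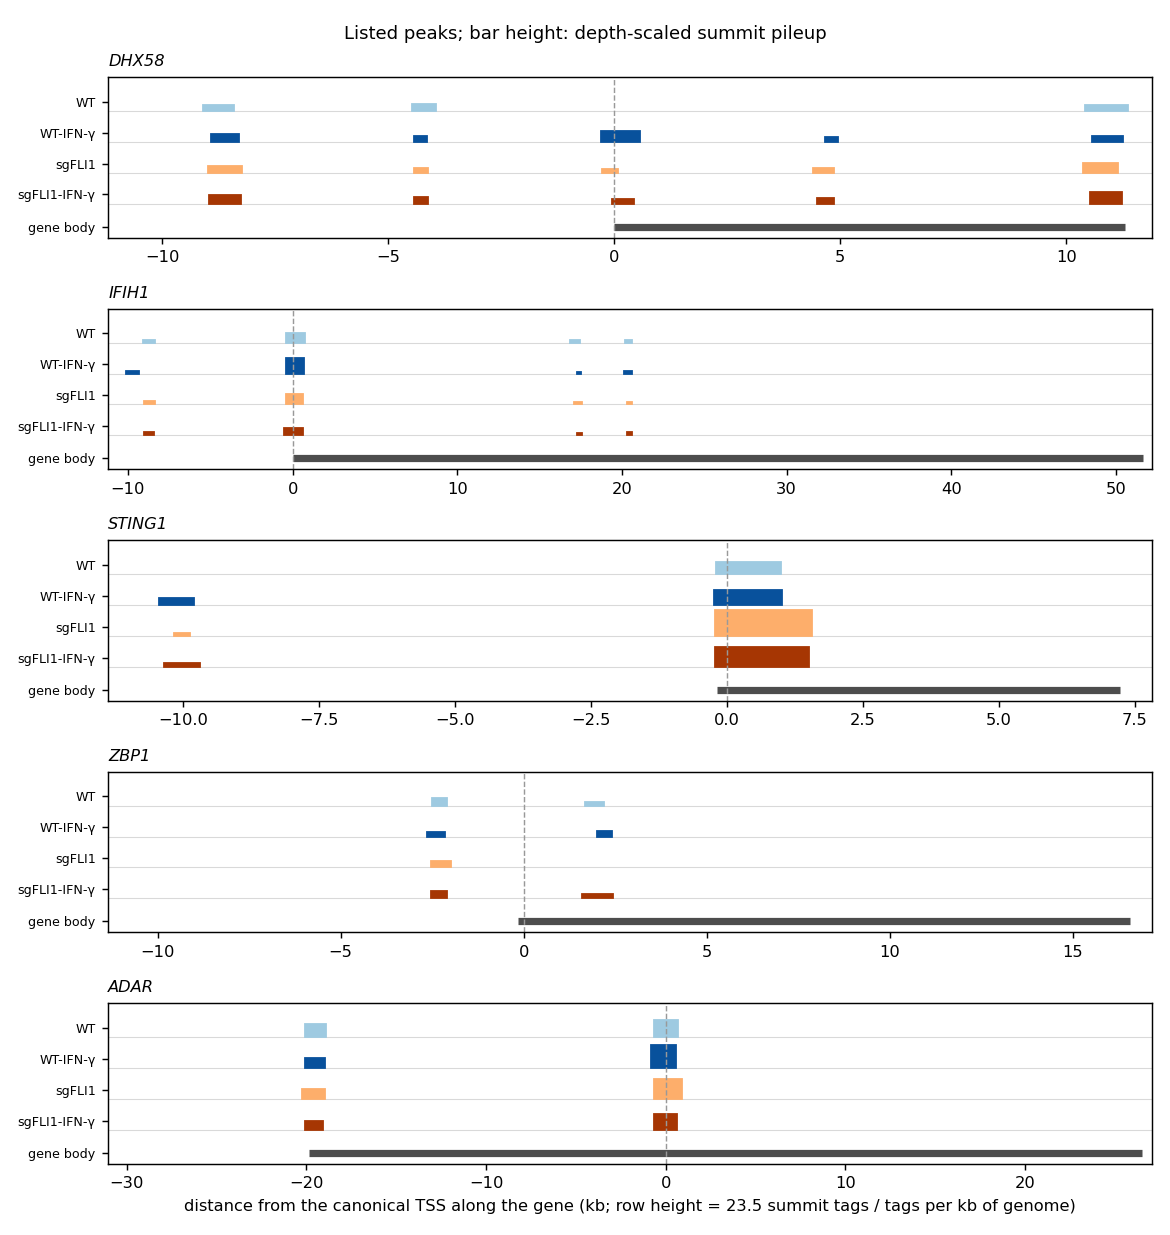
Peaks of 5 sensor genes by distance from the canonical TSS along the gene (kb), 1 row for each library, with bar width as the peak's width and bar height as its depth-scaled summit pileup, above the gene body. The DHX58 promoter row and the STING1 row at 10.1 kb upstream are empty in untreated WT, and ADAR has a peak at both of its starts in every library.

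The first comparison asked which sensor regions differed between the 2 WT libraries. Of the 23 sensor regions listed in either library, 4 were listed with IFN-γ only, at DHX58 (promoter and intron 7), STING1 (upstream) and IFIH1 (the weak upstream region), against 22.1% of all such regions. Another 2 were listed without IFN-γ only, in IFIH1 and EIF2AK2, against 12.3%, and both were weak. Of the 17 in both, 0 were at least 2-fold higher (1.80% of all shared regions) and 0 were at least 2-fold lower (0.914%). Their median ratio was 1.01, from 0.626 to 1.77, and that of all shared regions was 0.953. At least 1 region listed only with IFN-γ was found in 3 of the 9 genes, where 31.8% of all coding genes had one, so the sensor genes as a set stood near the background. With the window shortened to 3 kb upstream, 2 regions were listed with IFN-γ only.

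The FLI1-KO pair gave 3 regions listed with IFN-γ only, at ZBP1, EIF2AK2 and CGAS, against 14.4% of all regions, and 1 listed without it only, in RIGI, against 18.9%. Of the 19 in both, 0 were at least 2-fold higher (0.212% of all) and 0 at least 2-fold lower (0.510%). The median ratio was 1.09, from 0.717 to 1.75, and 0.909 over all shared regions. Again 3 of the 9 genes had a region listed only with IFN-γ, against 22.5% of coding genes. The 3 regions became 7 with a −log10 q of 5 or more asked of every list and 1 when the window was 10 kb either side of the TSS.

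**Figure D3:**
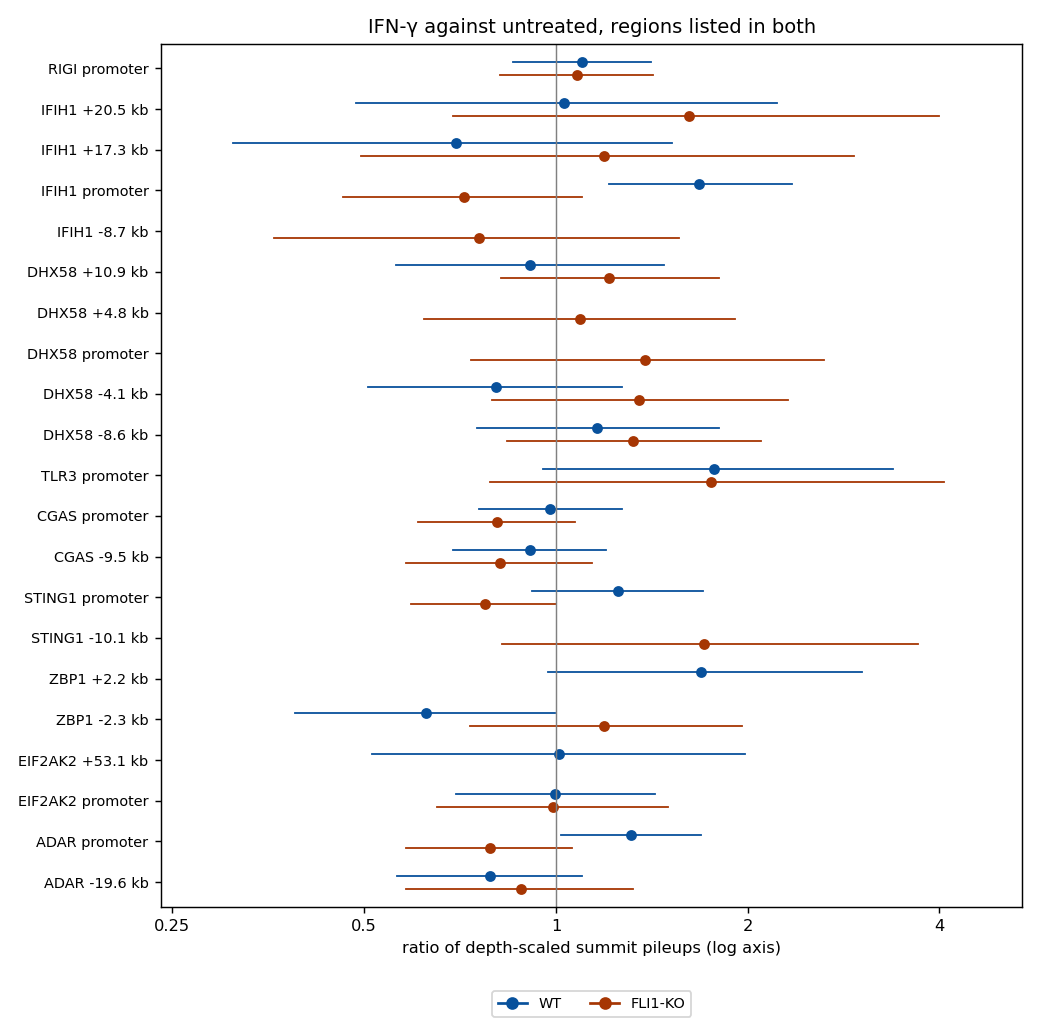
Ratio of depth-scaled summit pileups, IFN-γ against untreated, in WT (blue) and FLI1-KO (brown), with 95% intervals for counting error on a log axis, for sensor regions listed in both libraries. The genotypes stand on opposite sides of 1 at the IFIH1 promoter (1.68 and 0.717) and at the ADAR promoter (1.31 and 0.787), and together at TLR3 (1.77 and 1.75) and RIGI.

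Without IFN-γ, 4 sensor regions were listed in FLI1-KO only, in DHX58 (2), STING1 and RIGI, against 21.0% of all regions. In WT only there were 3, in ZBP1 and EIF2AK2 (2), against 16.8%. Of the 16 in both, 1, the STING1 promoter, was at least 2-fold higher in FLI1-KO (4.11% of all) and 0 were at least 2-fold lower (1.89%). The STING1 ratio fell short of 2-fold with pileups divided by the median of shared peaks (1.96) and was 0.981 on the deposited fold. The median was 0.961, against 1.03 over all shared regions. Both counts of regions in 1 list were smaller, at 2 and 1, when the listed peak had to reach a −log10 q of 5.

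With IFN-γ, 2 sensor regions were listed in FLI1-KO only, in IFIH1 and CGAS, against 14.9% of all, and 1 in WT only, in IFIH1, against 24.6%. All 3 were weak, with at most 15 tags. Of the 20 in both, 1, the DHX58 region in exon 14, was at least 2-fold higher in FLI1-KO (2.96% of all), and 2, the promoters of IFIH1 and DHX58, were at least 2-fold lower (3.31%). The median was 0.927, against 0.985 over all. None of these 3 passed a call at 3-fold, or at 2-fold on the deposited fold, where the DHX58 exon 14 region stood at 1.28 and the promoters of IFIH1 and DHX58 at 0.843 and 0.612.

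**Figure D4:**
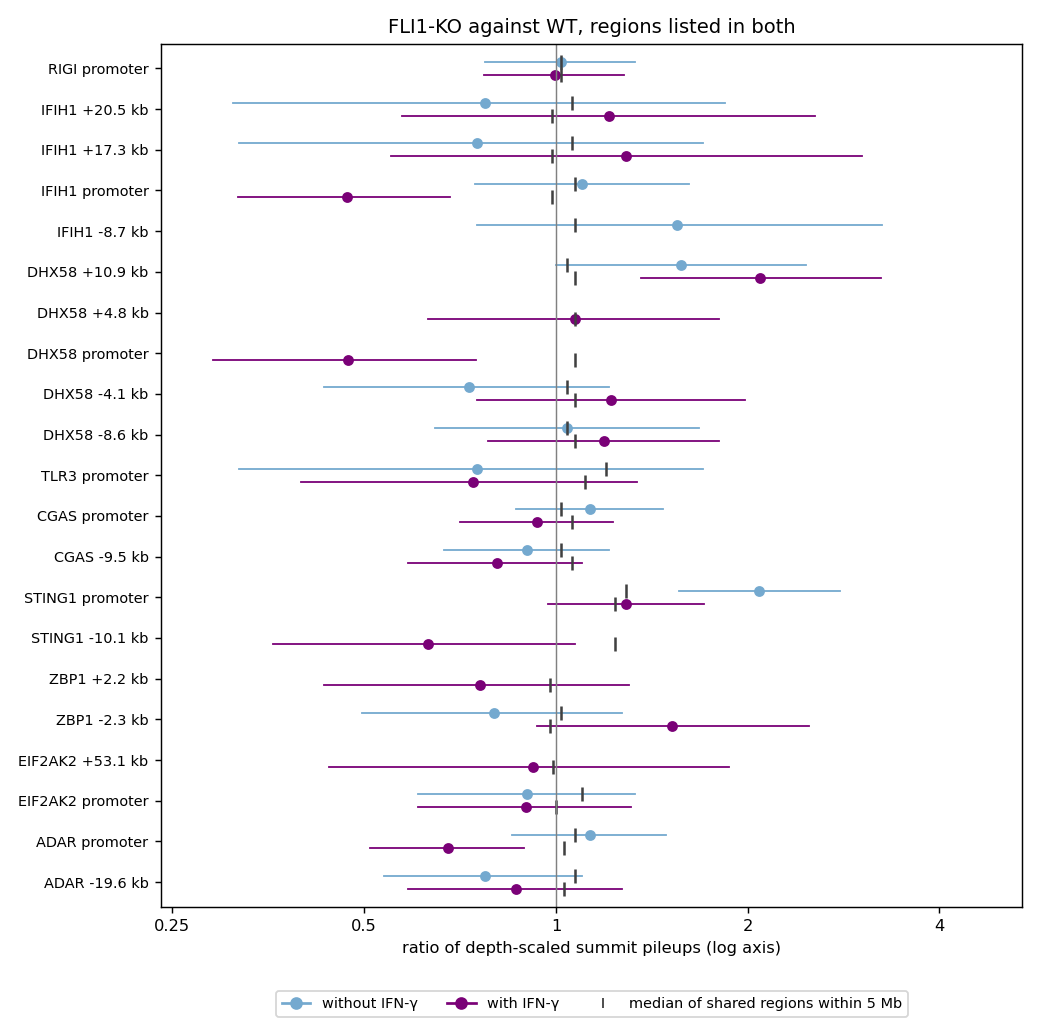
Ratio of depth-scaled summit pileups, FLI1-KO against WT, without IFN-γ (light blue) and with it (purple), with 95% intervals for counting error on a log axis and ticks at the median of shared regions within 5 Mb. With IFN-γ the promoters of IFIH1 (0.470) and DHX58 (0.472) lie furthest to the left, and without it the STING1 promoter (2.08) lies furthest to the right.

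The response itself was compared between the genotypes as the IFN-γ ratio in FLI1-KO divided by that in WT, for the 15 sensor regions in all 4 lists. It was 0.427 at the IFIH1 promoter (0.254 to 0.718), 0.601 at the ADAR p150 start (0.410 to 0.880) and 0.620 at the STING1 promoter (0.420 to 0.917), and 1.91 at the ZBP1 region 2.3 kb upstream (1.01 to 3.62). On the deposited fold the IFIH1 value was 0.758, outside its interval, and the others were 0.705 at ADAR, 0.819 at STING1 and 2.31 at ZBP1. In depth-scaled pileup, FLI1-KO at the STING1 promoter stood at 2.08 of WT without IFN-γ and at 1.29 with it. At IFIH1 and ADAR the ratios without it were 1.10 and 1.13, and those with it 0.470 and 0.678. In the other 11 the interval included 1, among them RIGI (0.980), TLR3 (0.988) and EIF2AK2 (0.993). Intervals wholly smaller than 1 were thus found in 3 of 15, where 4.76% of all 40876 regions had one, and wholly larger in 1, where 1.30% had one. These shares are not a like background, because such an interval narrows with more tags. The 3 regions held 39 to 154 tags, where the median over all regions ran from 38 in treated FLI1-KO to 50 in treated WT. The median was 0.993 over the 15 and 0.947 over all. The IFN-γ ratios of WT and FLI1-KO lay on opposite sides of 1 in 7 of the 15, where 45.2% of all 40876 regions did, a share near the background.

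Split by the IRF motif, 2 of 6 sensor regions with it were listed with IFN-γ only in WT and 0 of 6 in FLI1-KO, where the others were 2 of 17 and 3 of 17. Among all regions, 58.7% of those with the motif and 20.2% of those without were listed with IFN-γ only in WT, and 23.2% and 14.2% in FLI1-KO. The shared sensor regions with the motif had a median IFN-γ ratio of 1.48 in WT (n = 4) and 1.17 in FLI1-KO (n = 6). Those without it had 0.980 and 1.09 (n = 13 in each). The sets differ between the genotypes, so these medians are not like for like. With the motif, the FLI1-KO set adds the DHX58 promoter (1.38) and the STING1 upstream region (1.71), both unlisted in untreated WT. The 4 regions of the WT set stood in FLI1-KO at 0.717 (IFIH1), 1.75 (TLR3), 0.990 (EIF2AK2) and 0.787 (ADAR). With IFN-γ, the median ratio of FLI1-KO to WT was 0.653 with the motif (n = 6) and 1.13 without it (n = 14), and over all shared regions it was 0.813 and 0.991. The EIF2AK2 promoter, which holds the motif, had intervals that included 1 in all 4 comparisons.

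Of 31 other genes of nucleic acid sensing, 27 had a promoter region. TLR7, TLR8 and TLR9, endosomal receptors, and RIPK3, a necroptosis kinase, had none. Among the 26 regions in both libraries the median IFN-γ ratio was 0.951 in WT and 0.891 in FLI1-KO. A region listed with IFN-γ only lay in the window of 8 of the 31 genes in WT and of 5 in FLI1-KO, where 31.8% and 22.5% of coding genes had one. AIM2, a cytosolic DNA sensor of inflammasomes, had a promoter region listed only with IFN-γ in both genotypes, with 132 tags in treated WT and 28 in treated FLI1-KO, or 0.273 of WT after division by tag density (0.175 to 0.413). The next 2 genes were picked after their values were seen. IFI16, a DNA sensor of the same family, had 27 tags in untreated WT, 142 in treated WT, 39 in untreated FLI1-KO and 43 in treated FLI1-KO, with IFN-γ ratios of 4.79 in WT (3.16 to 7.52) and 1.11 in FLI1-KO. MLKL, the effector of necroptosis, had 63, 110, 47 and 44 tags in the same order, with ratios of 1.59 (1.16 to 2.2) and 0.946. The adaptors MAVS, with 51 to 78 tags, and TICAM1, with 21 to 56, were in every list. They too fell outside the rule for naming pathway genes given below. In FLI1-KO the TICAM1 promoter stood at 0.518 of WT without IFN-γ (0.294 to 0.885), the lowest such ratio among the pathway promoters. With IFN-γ it stood at 0.690 (0.428 to 1.09).

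**Figure D5:**
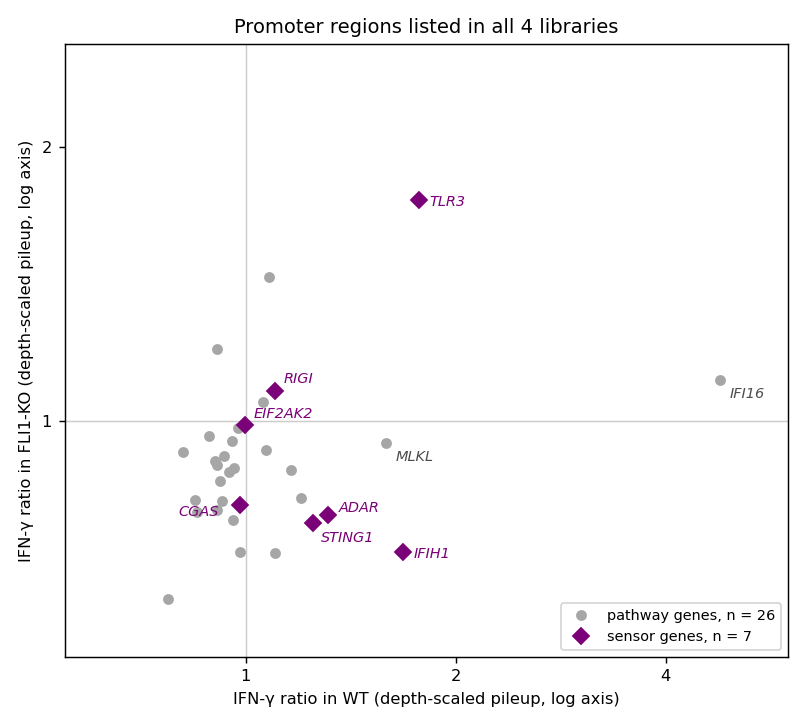
IFN-γ ratio of depth-scaled summit pileups in WT (x axis) and in FLI1-KO (y axis), both log axes, at promoter regions listed in all 4 libraries, for 26 pathway genes (grey circles) and 7 sensor genes (purple diamonds). IFI16 stands far to the right (4.79 in WT and 1.11 in FLI1-KO), IFIH1 to the right and below 1 (1.68 and 0.717), and TLR3 lies above 1 on both axes.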

How the data were processed

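ATAC-seq peaks of 4 HK1 libraries were used. Per the labels and methods, the authors used Trimmomatic 0.3 for trimming and Bowtie2 2.3.4.1 for alignment to GRCh38, removed duplicates and called peaks with MACS2 2.1.2 at q below 0.05. Whether a list comes from pooled replicates, or from before or after the reproducibility filter named there, and whether tags were shifted for the transposase, are not given in the sources used here. The deposited values were a score, a summit fold (ratio) over local background, the −log10 of p and of q there, and the summit's offset.

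Whole-number pileups and backgrounds were solved from each deposited fold and its −log10 p, within 0.2% for all but 1 peak. A low quantile of the backgrounds, divided by the width of the shortest peak as a stand-in for tag length, gave the tag density. The backgrounds of untreated and treated WT were 2.204 and 2.201 and the widths 274 and 249 bp, so their difference in density rests on the widths. Peaks overlapping by 1 bp or more were merged into regions. Promoter regions had the summit nearest the canonical TSS within 3 kb. Pileups have exact Poisson intervals and ratios exact conditional binomial ones. The response intervals are normal approximations on the log scale from the 4 pileups. Tags needed for a peak are an estimate from the other list's lowest −log10 p and the background scaled to its depth. Named were all 9 genes, each promoter region, and every other region listed with or without IFN-γ only that reached 20 tags, and of the pathway lists genes with such a promoter. The other pathway genes named fell outside this rule. The genes and lists were chosen with earlier results of these data known. Some listed genes and sequences are not reported here. Steps were tested on simulated data. Python 3.11.15, numpy 2.4.6, pandas 2.3.3, scipy 1.17.1, pysam 0.24.0 and matplotlib 3.10.9 were used.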

Additional observations from a re-analysis of the deposited data

Results flagged for a closer look

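In 7 of the 15 sensor regions listed in all 4 libraries (46.7%) the IFN-γ ratio lay on opposite sides of 1 in the 2 genotypes, as in 45.2% of all 40876 such regions. With 1 library in each group these differences were not tested. The IFIH1 promoter stood at 1.68 in WT and 0.717 in FLI1-KO, the ADAR p150 start at 1.31 and 0.787, and the STING1 promoter at 1.25 and 0.773. The other 4 were lower with IFN-γ in WT and higher with it in FLI1-KO, namely the ZBP1 region 2.3 kb upstream (0.626 in WT and 1.19 in FLI1-KO), the IFIH1 region 17.3 kb inside the gene (0.696 and 1.19), the DHX58 region in exon 14 (0.910 and 1.21) and the region 4148 bp upstream of DHX58 (0.804 and 1.35). For the last 3 and the STING1 promoter both intervals of counting error included 1. On the deposited fold the exon 14 region of DHX58 lay above 1 in both genotypes (1.07 and 1.11), the other 6 stayed on opposite sides, and 9 of the 15 did in all, against 55.5% of all such regions.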

How the results depend on the processing

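Of 108 counts recomputed under the alternatives, 71 stayed within 1.5 times the reported one and 37 did not. Of 92 recomputed ratios of named regions, 87 stayed within the interval of counting error, and all that left it did so on the fold as deposited. With −log10 q of at least 5 in every list, 7 regions were listed with IFN-γ only in FLI1-KO and 2 in untreated FLI1-KO only. With at least 10, there were 12 peaks in untreated WT, 13 in untreated FLI1-KO and 14 in treated FLI1-KO, and the regions listed in 1 list were 1 (without IFN-γ in WT), 2 (without IFN-γ in FLI1-KO), 2 and 1 (FLI1-KO only and WT only, untreated) and 1 and 3 (the same, treated). With 3 kb upstream, 2 were listed with IFN-γ only in WT, 1 without it only, and 1 and 0 in treated FLI1-KO and WT only. With 10 kb either side of the TSS, 1 was listed without IFN-γ only in WT, 1 with and 0 without it only in FLI1-KO, 1 in untreated WT only and 1 in treated FLI1-KO only. A required overlap of 0.5 of the shorter peak gave 2 listed without IFN-γ only in FLI1-KO. With −log10 q of 5 for the listed peak alone, the counts were 1 (without IFN-γ in WT), 2 and 1 (FLI1-KO and WT only, untreated) and 1 (treated FLI1-KO only). At 1.5-fold, 3 shared regions were higher and 1 lower with IFN-γ in WT, 3 higher with it in FLI1-KO, and 3 (untreated) and 2 (treated) higher in FLI1-KO. At 3-fold, 0 were higher or lower in FLI1-KO, untreated or treated. At 2-fold, 0 were higher in untreated FLI1-KO with pileups divided by the median of shared peaks or on the deposited fold, and on the deposited fold 0 were higher and 0 lower in treated FLI1-KO. Equal list sizes changed no count by over 1.5 times.

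On the fold as deposited, the STING1 promoter ratio of untreated FLI1-KO to WT was 0.981, on the other side of 1, and the treated one 0.803. The IFIH1 promoter stood at 1.04 with IFN-γ in WT and at 0.843 in treated FLI1-KO against WT, and the DHX58 region in exon 14 at 1.28. The local background differed between the libraries at these peaks, and whether it counts a peak's own tags is not given. Of 30 response ratios recomputed under both scalings, a choice made after seeing the data, 29 stayed within their interval and the IFIH1 promoter moved from 0.427 to 0.758 on the deposited fold. The cause was not tested. No paired analysis was possible because each group held 1 library, and none could be left out. The counts rest partly on regions of under 20 tags, whose Poisson intervals span more than 2-fold.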
